A study of Mus musculus with 9 samples.

Results

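Lin28b, Igf2bp1, Igf2bp2, Igf2bp3, Hmga1 and Hmga2 are genes of RNA-binding and chromatin proteins that are abundant in the embryo, low in most adult tissues and often on again in tumors. They were chosen by gene symbol and are 6 of the 24421 symbols listed for every library. All 6 passed the filter on low values. The study measured messenger RNA of mouse liver tumors by 3′ end sequencing (QuantSeq), which reads a short tag near the 3′ end of each transcript. It holds 9 tumors of C57BL/6 mice labelled 11 weeks of age, in groups of 3 called LHP (tumors 2, 3 and 6), S7HP (tumors 9, 11 and 12) and S7HP+Snail (tumors 13, 14 and 15). The headers of the value columns connect LHP with Luc, a luciferase control, and S7HP with Smad7, which inhibits signaling from the TGF-β receptor. S7HP+Snail adds Snail, the transcription factor of the Snai1 gene that drives loss of epithelial character. The labels do not expand the letters H and P. As background from knowledge of this kind of model, and not from the labels, they are read as activated Hras and a hairpin against Trp53, which every group would share, controls included. No cell type or promoter that drives the constructs is given, each library is labelled as 1 tumor, and nothing says whether tumors came from different mice. The p-values below therefore measure only the spread between these tumors.

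The families work at different steps of gene expression. LIN28B binds precursors of the let-7 microRNAs and blocks their maturation. Mature let-7 pairs through its seed with sites in 3′ untranslated regions (3′ UTRs) and lowers the messages that carry them, and the messages of Lin28b, Igf2bp1 and Hmga2 are textbook let-7 targets. IGF2BP1, IGF2BP2 and IGF2BP3 bind messenger RNAs, Igf2 and Myc among them, and affect their stability, localization and translation. HMGA1 and HMGA2 are small chromatin proteins that bind AT-rich DNA and bend it. HMGA2 is also known as a target of TGF-β signaling that acts on the Snai1 promoter. In the liver these genes belong to the fetal program and are known to come back in hepatocellular carcinoma.

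The let-7 seed and its matches are shown because they are the sequence that links the members. The seed (bases 2 to 8, in capitals) GAGGUAG was shared by 11 mature mouse microRNAs in RefSeq (GRCm38.p6), of which let-7a and let-7i stand for the family. The match to it in a target is CTACCTC on the transcript's strand, read 5′ to 3′. Capitals in the sites mark that match and, where it follows, the A that lengthens it. Of the 4 matches each in Lin28b, Igf2bp1 and Hmga2, only those followed by A are printed. These are 1 of 4 in Lin28b, 3 of 4 in Igf2bp1 and 1 of 4 in Hmga2. The sites are 30 bases long and lie in the 3′ UTR of the transcript with the longest one in GENCODE M21 (GRCm38, the build mm10 of the files).
mmu-let-7a-5p: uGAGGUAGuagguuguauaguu
mmu-let-7i-5p: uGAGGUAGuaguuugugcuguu
Lin28b site 1, chr10:45381022-45381051, minus strand: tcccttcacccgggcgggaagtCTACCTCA
Igf2bp1 site 1, chr11:95961778-95961807, minus strand: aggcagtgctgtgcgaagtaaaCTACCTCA
Igf2bp1 site 2, chr11:95959357-95959386, minus strand: tgggaaccagcagtgctattaaCTACCTCA
Igf2bp1 site 3, chr11:95958763-95958792, minus strand: actacgagtataaatggatgaaCTACCTCA
Igf2bp2, chr16:22059473-22059502, minus strand: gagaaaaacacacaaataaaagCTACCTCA
Igf2bp3, chr6:49086787-49086816, minus strand: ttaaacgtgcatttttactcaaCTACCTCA
Hmga1, chr17:27563270-27563299, plus strand: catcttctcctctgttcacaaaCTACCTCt
Hmga2 site 1, chr10:120364224-120364253, minus strand: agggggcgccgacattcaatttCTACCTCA

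All 6 members carried at least 1 match, against 9.25% of the 19479 genes whose 3′ UTR was searched. Lin28b (chromosome 10, 45376620 to 45486395), Igf2bp1 (chromosome 11, 95957163 to 96005940) and Hmga2 (chromosome 10, 120361275 to 120476469) carried 4 each, and they are 3 of only 12 genes (0.0616%) with 4 or more. The other 9 include Trim71, a let-7 target that is itself a developmental regulator, and Nr6a1, an orphan nuclear receptor of the embryo. Long 3′ UTRs hold more matches of any kind. Among genes with a 3′ UTR between 0.8 and 1/0.8 times as long, 0.306% had as many matches as Lin28b, 0.344% as many as Igf2bp1 and 0.129% as many as Hmga2. Igf2bp2 (chromosome 16, 22059009 to 22163299), Igf2bp3 (chromosome 6, 49085223 to 49214957) and Hmga1 (chromosome 17, 27556497 to 27563674) carried 1 each, where 12.2%, 13.5% and 7.9% of genes of similar 3′ UTR length had 1 or more. A match is a stretch of letters and not evidence of binding in these tumors.

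**Figure D1:**
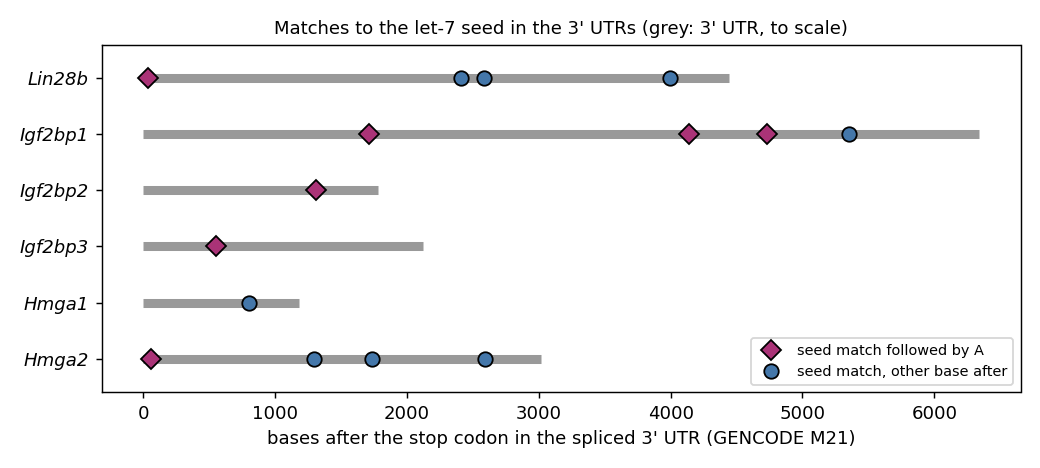
Position of each match to the let-7 seed (points) along the 3′ UTR (grey bars, in bases after the stop codon, to scale) of the 6 genes. Lin28b, Igf2bp1 and Hmga2 have 4 matches each and the others 1, and the matches of Igf2bp1 are spread over a 3′ UTR of 6337 bases.

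Values were deposited as log2(count + 1) of quantile-normalized counts, so every library has nearly the same total (19910396 to 19911234) and a value reflects a gene's rank within its library. Steps between the lowest values put relative depth between 0.6 (S7HP tumor 11) and 2.03 (S7HP+Snail tumor 14). Hepatocyte genes fit the label of liver tumor, with albumin (Alb) between 12.98 and 17.32. The deposited Smad7 value was lower in the groups named for Smad7 (6.28 to 8) than in LHP (9.49 to 10.5), and Snai1 lay between 7.31 and 8.53 in S7HP+Snail, above S7HP (6.17 to 6.92) and below LHP (9.93 to 11.16). A construct without the gene's own 3′ end gives no tag for it, so these values check nothing about the labels. Hras ranged from 9.73 to 10.38 in LHP, from 10.11 to 10.98 in S7HP and from 9.22 to 10.54 with Snail added, and Trp53 from 6.2 to 6.63, 5.96 to 6.53 and 5.21 to 5.86 in the same order. Tests were made with limma on all 9 libraries and 14215 genes, with two-sided p-values adjusted by the Benjamini-Hochberg method over all of them.

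Hmga1 and Hmga2 were high in the LHP tumors, Lin28b reached at most 7.24, and the 3 Igf2bp genes had 3 different patterns. Igf2bp1, Hmga1 and Hmga2 were lower in every S7HP tumor and every S7HP+Snail tumor than in any LHP tumor. Of all genes tested, 21.3% were lower without overlap in S7HP than in LHP, and 15.8% in S7HP+Snail than in LHP. The share lower in both was not computed. The 1 difference that passed the test was that of Hmga1 between S7HP+Snail and LHP, 3.33 lower on the log2 scale. In that comparison 7.22% of all genes passed, and the Hmga1 call was lost when any 1 LHP tumor was left out. The log2 values of the 9 tumors are given first for each gene, and then the differences.

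**Figure D2:**
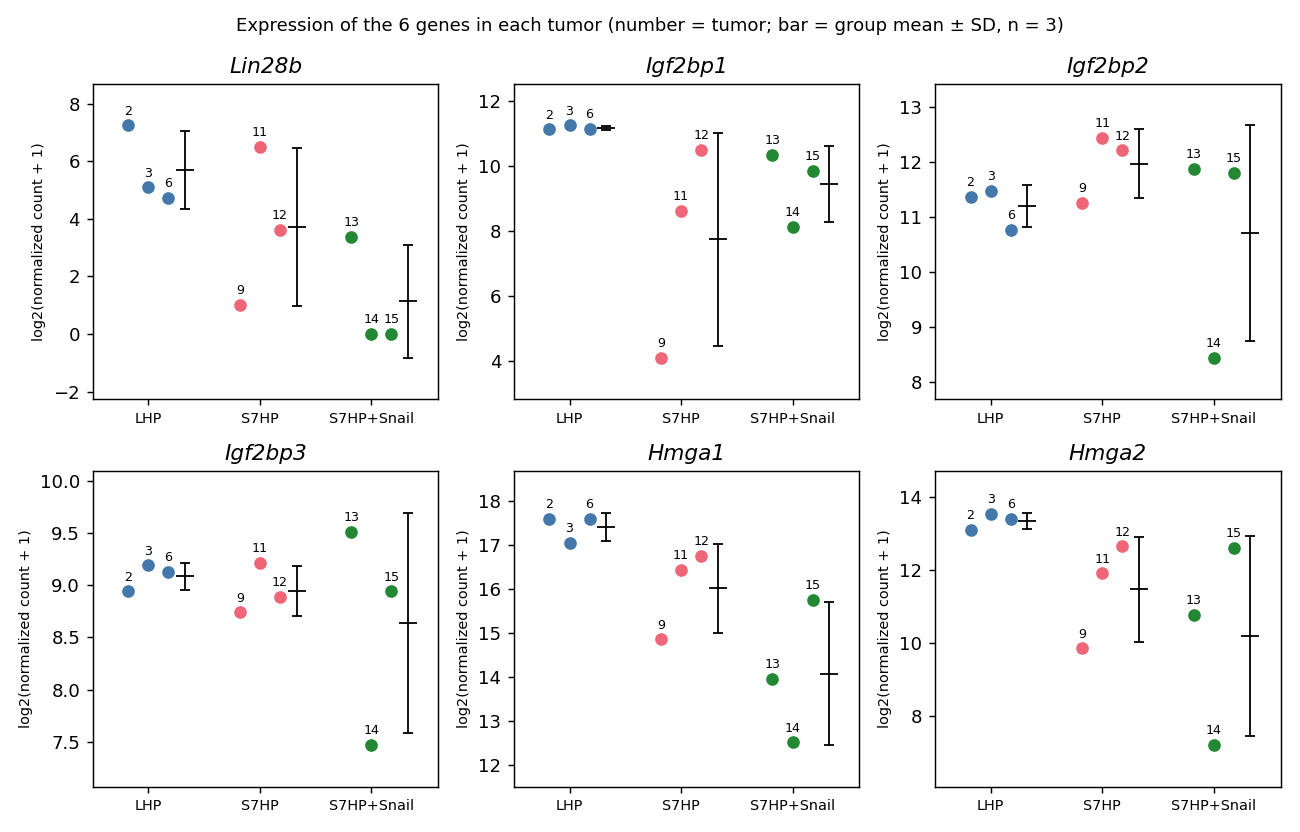
Deposited log2 value (vertical axis) of each gene in each tumor (numbered points), with the mean and SD of the 3 tumors of a group (bars); the vertical axes differ between panels and do not start at 0. The LHP points of Igf2bp1, Hmga1 and Hmga2 lie together at the top, and tumors 9 and 14 are the lowest points of their groups in all 6 panels, tumor 14 tied with tumor 15 at 0 for Lin28b.

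Lin28b, the let-7 blocker, had log2 values of 7.24, 5.09 and 4.72 in LHP tumors 2, 3 and 6. It had 1, 6.48 and 3.62 in S7HP tumors 9, 11 and 12. In S7HP+Snail tumors 13, 14 and 15 it was 3.38, 0 and 0. Its value in S7HP tumor 9 was the lowest step above 0 in that library, and the libraries of tumors 14 and 15 list it at 0, the first of which was the deepest of the 9. LHP and S7HP overlapped, because S7HP tumor 11 lay above LHP tumors 3 and 6, while the 3 S7HP+Snail tumors lay below all LHP tumors. Only the LHP tumors and S7HP tumor 11 reached the filter level of log2 4, so Lin28b was tested because of its LHP values. Its paralog Lin28a, chosen after its values were seen, stayed between 0 and 1.22 in LHP, 0 and 4.08 in S7HP and 0 and 2.35 in S7HP+Snail, and did not pass the filter.

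Igf2bp1, the family member most restricted to the embryo, was nearly constant in LHP at 11.12, 11.24 and 11.14. In S7HP it was 4.1, 8.6 and 10.5, and in S7HP+Snail 10.34, 8.13 and 9.85. All LHP tumors lay above all others, and S7HP tumor 9 was the lowest of the 9, with S7HP+Snail tumor 14 next. Within S7HP its SD was 3.29, larger than that of all but 0.169% of genes tested, whereas within LHP it was 0.07 and 96.6% of genes had a larger SD. All genes tested had a median SD of 0.35 among LHP tumors, 0.41 among S7HP tumors and 0.45 with Snail added.

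Igf2bp2, which is also expressed in adult tissues and is linked to metabolism, had values of 11.36, 11.48 and 10.77 in LHP. It had 11.26, 12.44 and 12.21 in S7HP and 11.87, 8.44 and 11.8 in S7HP+Snail. The groups overlapped, and leaving aside tumor 14 all values lay between 10.77 and 12.44. Igf2bp3 was 8.94, 9.19 and 9.13 in LHP, 8.74, 9.21 and 8.89 in S7HP and 9.51, 7.47 and 8.94 in S7HP+Snail. It had the narrowest range of the 6 genes, 2.04 over the 9 tumors, and tumor 14 again lay apart. The 3′ end of Igf2bp3 overlaps that of Malsu1 on the other strand, and whether counting used the strand is not given in the sources used here. Malsu1, chosen for this overlap, had values from 7.95 to 8.91 over the 9 tumors.

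Hmga1 was among the most abundant messages of the LHP tumors, with log2 values of 17.6, 17.05 and 17.6. These correspond to 0.997%, 0.683% and 0.997% of the normalized count, and to ranks 4, 6 and 4 among all symbols. It was 14.86, 16.44 and 16.75 in S7HP and 13.97, 12.52 and 15.76 in S7HP+Snail. All LHP tumors lay above all S7HP tumors, and S7HP and S7HP+Snail overlapped through S7HP tumor 9 and S7HP+Snail tumor 15. In S7HP+Snail tumor 14, where it was lowest, Hmga1 was 0.0295% of the count and ranked 548. The lowest S7HP tumor had 0.15% and rank 57.

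The 3′ end of Hmga1 is not unique among annotated transcripts, so its tags could be assigned elsewhere or come from elsewhere, and its values are uncertain to that extent. Of the 451 stretches of 50 bases in its last 500 bases, 401 (88.9%) also occur in another gene. No such stretch of the other 5 members was found in another gene. The 3′ end of Hmga1 also overlaps AI413582 on the other strand, which was named for this reason and had values from 7.23 to 8.64.

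Hmga2, the member with the strongest textbook link to let-7, had log2 values of 13.09, 13.53 and 13.39 in LHP. It had 9.84, 11.9 and 12.64 in S7HP, and 10.75, 7.19 and 12.59 in S7HP+Snail. All LHP tumors were again above all others. S7HP and S7HP+Snail overlapped over most of their range, and its SD of 2.75 in S7HP+Snail was exceeded by 2.28% of genes. By rank within the library Hmga2 ran from 223 in LHP tumor 3 to 9317 in S7HP+Snail tumor 14.

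S7HP against LHP sets Smad7 tumors against their Luc controls. None of the 6 members passed the test, and 1 (Igf2bp1) had an unadjusted p under 0.05 in limma, the only tool run. Of all genes tested, 19% passed (9.47% as higher, 9.54% as lower). Igf2bp1 was 3.43 lower (SE 1.31, 95% interval -6.37 to -0.5, limma adjusted p = 0.0952). Hmga2 differed by -1.88 (SE 1.17, -4.5 to 0.75, adjusted p = 0.289) and Hmga1 by -1.40 (SE 0.74, -3.06 to 0.26, adjusted p = 0.214). These 3 did not overlap between the groups, in the direction in which 21.3% of all genes did not (20.9% in the other). Lin28b differed by -1.98 (limma adjusted p = 0.374), Igf2bp2 by 0.77 (0.534) and Igf2bp3 by -0.14 (0.856, 95% interval -1.13 to 0.85). The median difference was -1.64 over the 6 members and 0.02 over all genes. Without S7HP tumor 12 Igf2bp1 passed (-4.82, adjusted p = 0.0279), and without S7HP tumor 9 its difference was the smallest (-1.62).

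S7HP+Snail against S7HP addresses what Snail adds to Smad7 tumors. No member passed the limma test, 1 (Hmga1) had an unadjusted p under 0.05, and 2.3% of all genes passed (1.01% as higher, 1.29% as lower). Differences were -2.57 for Lin28b (adjusted p = 0.403), 1.71 for Igf2bp1 (0.54), -1.27 for Igf2bp2 (0.447), -0.31 for Igf2bp3 (0.764), -1.94 for Hmga1 (0.212) and -1.29 for Hmga2 (0.609), all from limma. No member was without overlap, against 11% of all genes that were lower in S7HP+Snail without overlap and 9.53% that were higher. The intervals were wide, from -1.23 to 4.64 for Igf2bp1 and from -3.91 to 1.34 for Hmga2. Igf2bp1, Igf2bp3 and Hmga2 turned direction when 1 library was left out: Igf2bp1 was -0.11 without S7HP tumor 9, and without S7HP+Snail tumor 14 Igf2bp3 was 0.28 and Hmga2 0.21. Hmga1 passed without S7HP+Snail tumor 15 (-2.77, limma adjusted p = 0.0458). The medians were -1.28 over the members and -0.02 over all genes.

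The comparison of S7HP+Snail with LHP shares the LHP tumors with the first and the S7HP+Snail tumors with the second, so its values are not independent of theirs. Hmga1 passed: it was 3.33 lower (SE 0.74, 95% interval -5 to -1.67, limma adjusted p = 0.0305), a 10.1-fold difference, and lower in 3 of 3 tumors. It was the only one of 6 to pass, where 7.22% of all genes passed (3.35% as higher, 3.87% as lower). Its call was lost without LHP tumor 2, 3 or 6 (adjusted p = 0.0904, 0.0868 and 0.103), without S7HP+Snail tumor 13 (0.0688) and in a fit of the 6 libraries compared alone (0.0519). Lin28b differed by -4.55 (SE 1.47, -7.84 to -1.27, limma adjusted p = 0.0931) and Hmga2 by -3.16 (SE 1.17, -5.78 to -0.54, adjusted p = 0.131), and both had unadjusted p under 0.05. Without S7HP+Snail tumor 15 the Hmga2 difference passed (-4.37, adjusted p = 0.0448). Differences of Igf2bp1 (-1.73), Igf2bp2 (-0.5) and Igf2bp3 (-0.45) did not pass (limma adjusted p = 0.447, 0.735 and 0.569), and without tumor 14 those of Igf2bp2 and Igf2bp3 turned to 0.63 and 0.14. Lin28b, Igf2bp1, Hmga1 and Hmga2 did not overlap between the groups, beside 15.8% of all genes in that direction. For Lin28b neither this nor its difference is support, because it would not have passed the filter without its high LHP values. Without the filter its difference had a limma adjusted p of 0.112. The median was -2.44 over the members and 0 over all genes.

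**Figure D3:**
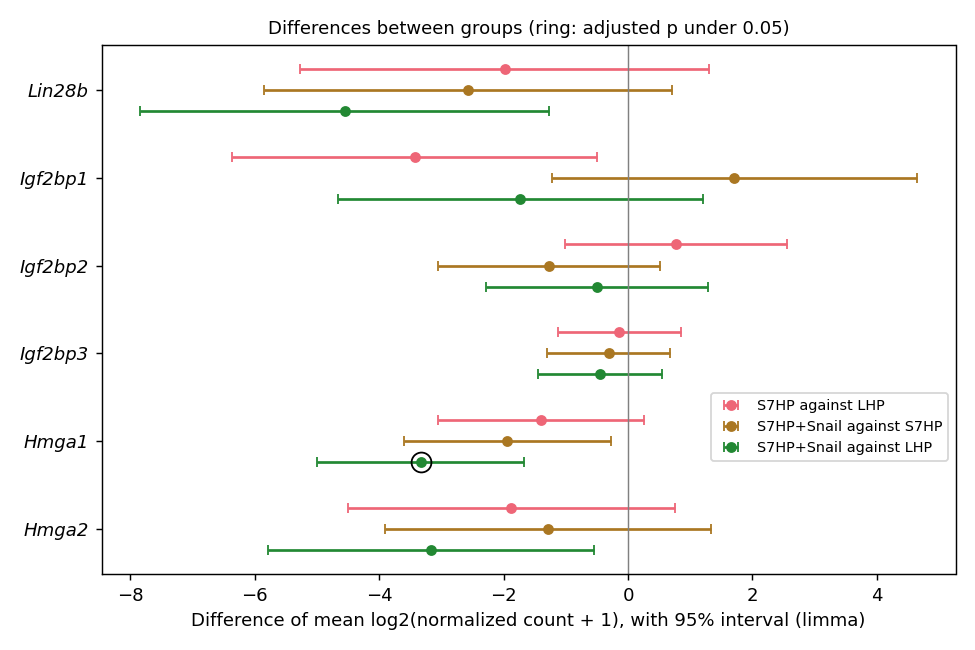
Difference in mean log2 value between groups (horizontal axis; points) with its 95% interval from limma (bars) for each gene and comparison; a ring marks an adjusted p under 0.05. The ring at -3.33 for Hmga1 is the only one, and intervals of Igf2bp3 are the narrowest.

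Tumors 9 and 14 stood apart within their groups. S7HP tumor 9 was the lowest of its group for 6 of 6 members. S7HP+Snail tumor 14 was the lowest of its group for all but Lin28b, where it tied with tumor 15 at 0, and it was lowest of all 9, or tied for it, for 5. How many of all genes were lowest in these tumors was not counted. The mean of 22 control genes for scaling was also lowest there. It was 11.55 in tumor 9 against 11.88 and 11.71, and 11.49 in tumor 14 against 11.63 and 11.64. Igf2bp3 was lower in tumor 9 (8.74) than in tumor 12 (8.89) by about as much as the control genes. The summed hepatocyte markers were the highest of their group in tumors 9 and 14, while other cell type markers were mixed. The level of a marker list is the log2 of its summed normalized counts, so its most abundant genes dominate it. For the 14 hepatocyte markers it was 18.93 in tumor 9 against 17.5 and 17.51 in the other S7HP tumors. It was 17.93 in tumor 14 against 17.13 and 17.06, and 15.38 to 16.23 in LHP. None of the 14 was at 0 in any tumor. Afp, the fetal albumin relative, was 16.32 in tumor 9 against 14.14 and 14.65, and 15.41 in tumor 14 against 12.39 and 11. Keratin 19 (Krt19), a biliary and progenitor marker chosen after its values were seen, was 4.35 in tumor 14 against 12.53 and 11.29. In S7HP it lay between 10.78 and 11.75. The 10 biliary and progenitor markers had a level of 14.91 in tumor 14 against 17.08 and 18.41. In tumor 9 their level was 17.25 against 15.89 and 16.74. Stellate and fibroblast markers, 12 of 12 detected, had levels of 15.74 to 16.17 in LHP, 13.04 to 13.64 in S7HP and 14.07 to 14.71 in S7HP+Snail. Tumors 9 (13.61) and 14 (14.08) did not stand apart in them. Endothelial levels were highest of the group in both (12.93 and 13.15). Macrophage and T and NK lymphocyte levels were highest of the group in tumor 14 (13.76 and 8.85). In tumor 9 (12.77 and 7.79) they were not. The part of cell makeup in the differences of the members was not tested, and in these bulk tumors fewer cells of a type and less RNA per cell cannot be told apart. Of 20 proliferation genes 0 passed in each of the 3 comparisons (limma), with 2, 1 and 4 at an unadjusted p under 0.05. Their level was 13.85 in tumor 9, the lowest of the 9 tumors, against 15.34 and 14.36. In tumor 14 it was 14.21 against 14.75 and 14.08.

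Likeness of profiles was measured as the root mean square difference, over the 9 tumors, between log2 values centred on each gene's mean. It is a description with no test, and the 9 points share their libraries. Among the 3 genes closest to Hmga1 were Fosl1 (0.5), a subunit of the AP-1 transcription factor, and Ano1 (0.55), a calcium-activated chloride channel, where the median of all genes was 1.7. Hmga2 was closest to Efna5 (0.66), an ephrin ligand, then Ano1 (0.71) and Hmga1 (0.72), with a median of 2. Fosl1 also fell between LHP and S7HP+Snail (-4.12, limma adjusted p = 0.0202), a call lost when S7HP+Snail tumor 13 or any 1 LHP tumor was left out (adjusted p up to 0.0803). Igf2bp1 was closest to Adgrg6 (0.88), an adhesion receptor, Map1b (1.06), a microtubule protein, and Fscn1 (1.2), the actin bundler fascin. Igf2bp2 was closest to Prelid2 (0.28), Krt8 (0.34), an epithelial keratin, and Plekhb2 (0.39). Igf2bp3 was closest to Nedd9 (0.22), Coro1c (0.22) and Tab3 (0.23). The 3 genes nearest to Lin28b, Glrp1, Syngr1 and Usp43, were 1.33 to 1.47 away, where the median was 2.56 (2.2 for Igf2bp1). Among the 15 pairs of members, Igf2bp2 with Igf2bp3 (0.7) and Hmga1 with Hmga2 (0.72) were closest, and the other 13 lay between 1.37 and 2.34. The measure is not scaled to a gene's range, so genes with a narrow range lie close to many others. The median of all genes was 0.72 for Igf2bp3 and 1.21 for Igf2bp2. Igf2bp3 was thus about as far from Igf2bp2 as from the median gene.

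**Figure D4:**
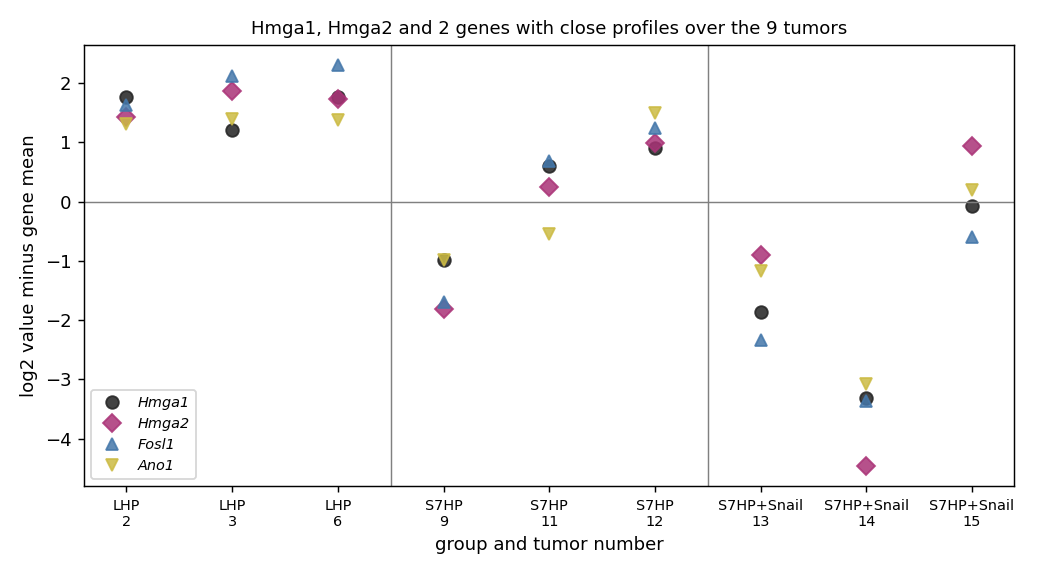
Log2 value minus the gene's mean over the 9 tumors (vertical axis) for Hmga1, Hmga2, Fosl1 and Ano1 in each tumor (horizontal axis). All 4 genes are above their mean in the LHP tumors and lowest in S7HP+Snail tumor 14.

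The let-7 pathway was read on either side of LIN28B, with all-gene shares of 19%, 2.3% and 7.22% passing in the 3 comparisons. Of 19 tested genes that make, load or control let-7, Lin28b included, 0 rose and 2 fell in S7HP against LHP. Those that fell were the RNA-binding protein Hnrnpa1 (-1.13, limma adjusted p = 0.0226) and the Drosha cofactor Ddx17 (-0.68, 0.0416). None passed in S7HP+Snail against S7HP (limma; 3 at an unadjusted p under 0.05), and 1 fell in S7HP+Snail against LHP, Ago2 (-1.34, 0.049), the protein that carries mature let-7. The calls of Hnrnpa1, Ddx17 and Ago2 were lost under 4, 8 and 12 of the 15 alternatives (adjusted p up to 0.0782, 0.138 and 0.157). The medians of the list were -0.3, 0.18 and -0.13 in the 3 comparisons. Mature let-7 is not read by this library type. The 11 listed symbols of let-7 genes themselves (Mirlet7) were at 0 in 84 of 99 values. Longer transcripts that hold let-7 precursors were not examined.

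Of 37 tested let-7 target genes, members included, 2 rose and 3 fell in S7HP against LHP. Igf1r, the receptor through which IGF2 signals, fell by 4.15 (limma adjusted p = 0.00247), Thbs1, the matrix protein thrombospondin, by 2.29 (0.00952), and Ccnj, a cyclin, by 1.82 (0.0323). Nr6a1 rose by 1.14 (0.033), as did Nme6 of the nucleoside diphosphate kinase family, by 1.11 (0.0382), a gene chosen after its values were seen. Igf1r and Thbs1 kept their calls under all 15 alternatives, while those of Ccnj, Nr6a1 and Nme6 were lost under 5, 7 and 5 (up to 0.116, 0.104 and 0.13). In S7HP+Snail against S7HP the 2 that rose were Igf1r (2.91, limma adjusted p = 0.0409) and Thbs1 (2.18, 0.043), calls that were lost under 11 and 12 alternatives (up to 0.121 and 0.147). In S7HP+Snail against LHP, 0 rose and 2 fell, Hmga1 among them. The list medians were -0.17, -0.38 and -0.59. Across all genes tested, the 1332 with at least 1 seed match had median differences of 0.01, -0.04 and -0.03, beside 0.01, -0.02 and -0.01 for all 13086 whose 3′ UTR was searched, those 1332 included. The 163 with at least 2 matches had 0.07, -0.1 and 0.01. The 23 with at least 3, Lin28b, Igf2bp1 and Hmga2 among them, had 0.31, -0.43 and 0.21.

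Messages known to be bound by IGF2BP proteins went both ways. Of all genes tested, 9.47% rose and 9.54% fell in S7HP against LHP, and 3.35% and 3.87% in S7HP+Snail against LHP. In S7HP+Snail against S7HP 2.3% passed. Of 16 bound messages tested, Lin28b included, 2 rose and 4 fell in S7HP against LHP. In S7HP+Snail against S7HP 0 passed (limma, 5 at an unadjusted p under 0.05), and 2 rose and 2 fell in S7HP+Snail against LHP. The 2 that rose were in each case Igf2, the fetal growth factor, by 5.85 and 8.38 (limma adjusted p = 0.00691 and 0.00345), and H19, its imprinted noncoding neighbour, by 6.05 and 7.01 (0.00059 and 0.000773). Mtdh, a tumor-associated adaptor protein, fell by 1.02 and 1.05 (0.00711 and 0.0142, the second lost without LHP tumor 3), and Fscn1 fell by 2.88 in S7HP against LHP (0.00905). Of 14 HMGA-linked genes, 4 fell in S7HP against LHP and 3 in S7HP+Snail against LHP, with 0 that rose. These included Snai1 (-4.22 and -2.59, limma adjusted p = 0.000613 and 0.00931), E2f1, a cell cycle regulator (-1.6 and -1.58, 0.0072 and 0.0165), and the mesenchymal filament gene Vim (-1.8 and -1.7, 0.012 and 0.0316). Twist1, an EMT transcription factor, fell in the first (-5.2, 0.0187). Snai1 is the gene that S7HP+Snail adds. Whether the construct gives tags for it is not known, so its value in that group is ambiguous. The calls of Vim in both comparisons, of Snai1 and E2f1 in the second and of Twist1 were lost without LHP tumor 3. Over all alternatives the adjusted p reached 0.118 for Vim, 0.0518 for Snai1, 0.0703 for E2f1 and 0.0715 for Twist1. None of the 14 passed in S7HP+Snail against S7HP (limma; 3 at an unadjusted p under 0.05). Of 10 tested relatives of the members, Ybx3, a cold-shock domain protein, fell in both comparisons with LHP (-1.26 and -1.6, 0.0306 and 0.0265, up to 0.101 over the alternatives).

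Several other oncofetal genes of the liver were lowest in the LHP tumors, where Hmga1, Hmga2 and Igf2bp1 were highest. Of 12 tested, 6 rose and 0 fell in S7HP against LHP, and 6 rose and 0 fell in S7HP+Snail against LHP (5 called without tumor 14). Of all genes tested, 9.47% rose in the first of these comparisons and 3.35% in the second. The list was not uniform, and some genes had a lower mean in S7HP than in LHP without passing. These were Meg3 (11.66 against 12.27), Plagl1 (4.57 against 5.37), Peg10 (4.55 against 5.52) and Pkm (13.6 against 13.79). Afp, the clinical marker of hepatocellular carcinoma, rose by 7.49 in S7HP (SE 0.96, limma adjusted p = 0.00147), Spink1, a secreted trypsin inhibitor, by 6.23 (0.00154), and Gpc3, a heparan sulfate proteoglycan, by 4.9 in S7HP+Snail (0.00632). In S7HP+Snail against S7HP none of the 12 passed (limma; 4 at an unadjusted p under 0.05). The list medians were 2.35, 0.77 and 3.08, beside -1.64, -1.28 and -2.44 for the 6 members. All 3 comparisons are made from the same 9 tumors, and the 2 with LHP share it.

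**Figure D5:**
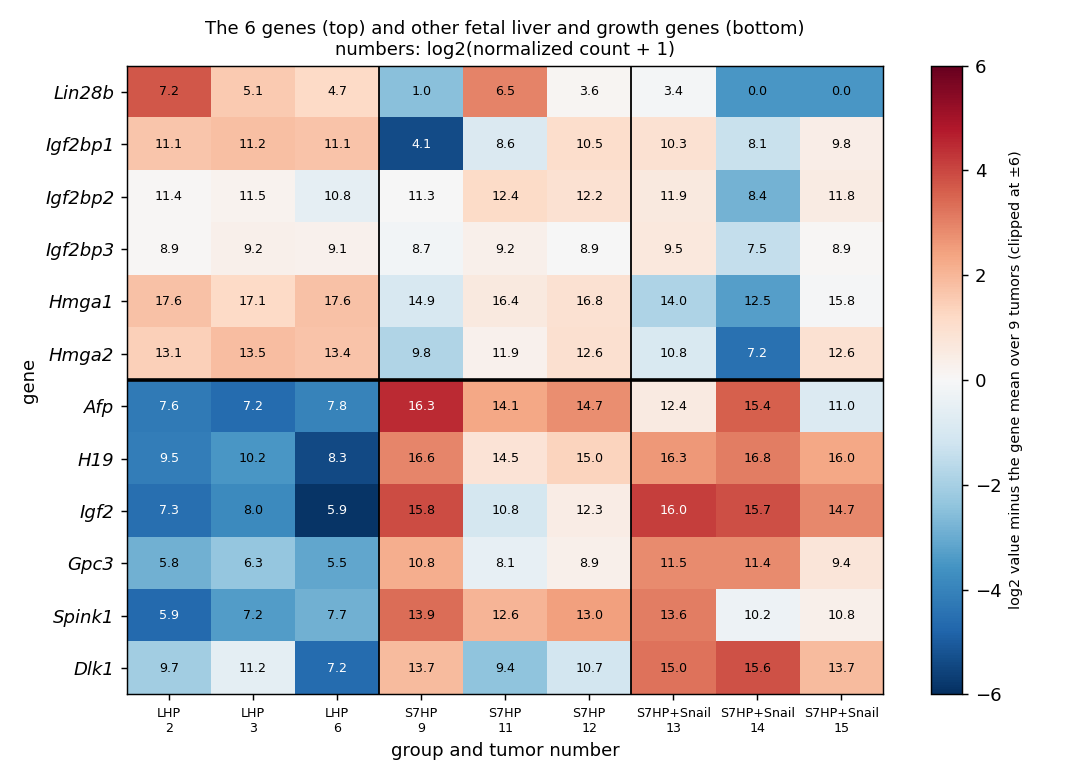
Log2 value (number in each cell) and its distance from the gene's mean over the 9 tumors (color) for the 6 genes (top) and for Afp, H19, Igf2, Gpc3, Spink1 and Dlk1 (bottom; Dlk1 chosen after its values were seen). In the 3 LHP tumors Igf2bp1, Hmga1 and Hmga2 are above their means while Afp, H19, Igf2, Gpc3 and Spink1 are below theirs. Genes of the same list with a lower mean in S7HP than in LHP, such as Meg3 and Peg10, are not shown.

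Promoters were searched for CAGGTG, the E-box bound by Snail, on both strands of the 250 bases before and 50 after the start (RefSeq, GRCm38.p6). None of the 6 promoters listed for 5 of the members held it, against 20.2% of all 32851 promoters. This says only that the letters are not in these windows.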

How the data were processed

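RNA of 9 liver tumors was extracted with Trizol, and 500 ng of total RNA went into QuantSeq 3′ end libraries, per the labels' protocols. Bowtie2, edgeR and mm10 are named in the submitters' processing notes, with no version or role. Per the file headers and the values, the authors deposited log2 values of quantile-normalized counts plus a pseudocount of 1; quantile normalization gives all libraries the same distribution, so changes in total RNA cannot be seen. Back-transformed, 100% of values are whole ninths (tolerance 0.001, widening in proportion to the value), so raw counts were not recovered. The 14215 genes that reached log2 4 in 3 or more libraries were tested with limma 3.58.1 (R 4.3.3; intensity trend, robust variances, 6 residual degrees of freedom, all 9 libraries in 1 fit) and called where the adjusted p (Benjamini-Hochberg) was under 0.05. The script was tested on simulated data. Named genes were the 6 members, up to 4 called genes per list and comparison by adjusted p, and the 3 closest profiles with mean log2 of at least 6. Of 258 entries in 18 gene lists, 255 matched a symbol. The members and lists were chosen with earlier results of these data known. Seed matches were counted in GENCODE M21 transcripts. Of the 15 alternatives, 9 left out 1 library each; the others were scaling on control genes, no filter, a filter at log2 6, a pseudocount of 16, no trend, and only the 6 libraries compared. Some genes that these rules would name are not reported here.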

Additional observations from a re-analysis of the deposited data

How the results depend on the processing

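No paired analysis was possible because the groups share no tumor number. Of the member differences under the 15 alternatives, 253 kept direction and side of the threshold, 5 lost and 3 gained a call, and 5 turned direction. Those that turned were all from leaving out 1 library. In S7HP+Snail against S7HP, Igf2bp1 ranged from -0.11 (without S7HP tumor 9) to 3.09, Igf2bp3 from -0.74 to 0.28 and Hmga2 from -2.49 to 0.21, the latter both turning without S7HP+Snail tumor 14. In S7HP+Snail against LHP, Igf2bp2 ranged from -1.08 to 0.63 and Igf2bp3 from -0.88 to 0.14, and both turned without that tumor. Leaving out 1 library in turn gave 1386 to 3154 genes called in S7HP against LHP (2702 with all), 62 to 445 in S7HP+Snail against S7HP (327) and 240 to 1045 in S7HP+Snail against LHP (1026), and 0 to 1, 0 to 1 and 0 to 2 members. With only the 6 libraries compared, 119 genes passed in S7HP+Snail against S7HP and 681 in S7HP+Snail against LHP, with 0 members in the latter. In S7HP against LHP the count went up, to 3396. Fewer samples entered each of these fits, and why the counts moved was not tested. Hmga1 in S7HP+Snail against LHP ranged from -4.17 to -2.55 (limma adjusted p from 0.00813 to 0.103). Scaling on 22 control genes moved the median of all genes by 0.01, 0.13 and 0.14 in the 3 comparisons and turned no member. Of these control genes 2 rose and 4 fell in S7HP against LHP (limma), so the set was not stable and this check is limited. Lin28b did not pass the filter at log2 6 and in some fits with fewer libraries, and has no value there. List counts and named genes were added after seeing the data: of the list counts 147 moved by over 1.5 times and 663 did not, and no named gene turned direction. Low values are limited by depth, since the third step above 0 lay between 1.22 and 2.64, above 3 of the 9 Lin28b values (1, 0 and 0).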
